A study of Mus musculus with 16 samples.

Results

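Transglutaminases are calcium-dependent enzymes that join the side chains of glutamine and lysine residues and thereby cross-link proteins. Tgm1 is the enzyme of differentiating keratinocytes that fastens proteins and lipids into the cornified envelope of the skin, and Tgm2, tissue transglutaminase, is found in many tissues, where it also binds GTP and acts on matrix proteins outside the cell. Tgm3 and Tgm5 are best known from the epidermis and hair follicle, and Tgm6 from neurons. These 5 genes are the transglutaminases considered here, out of 21878 mRNAs measured in each library. The set was selected on the change of Tgm1 between EAE mice and PBS-treated mice, so every difference of its members between these groups is given below as a description and without a p-value.

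RNA-seq was performed on cells sorted as microglia from the brains of 8 mice with experimental autoimmune encephalomyelitis (EAE), a model of multiple sclerosis, and of 8 PBS-treated mice, with 1 library of rRNA-depleted RNA per mouse. All mice were wild-type C57BL/6, 8 weeks of age and described as female in the methods. EAE mice had been immunized with the myelin peptide MOG35-55 in complete Freund's adjuvant and given pertussis toxin, PBS-treated mice had received PBS on the same schedule, and brains were taken at day 14. The protocol and the methods name residues 35-55 for all EAE mice, while the treatment labels of the 8 EAE samples give last residues from 55 to 62. No adjuvant or toxin is named for the PBS group, so that peptide, adjuvant and toxin cannot be told apart. Libraries are named EAE 1 to EAE 8 and PBS 1 to PBS 8.

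Total counts were 24587443–30244215 in the EAE libraries and 26031889–34184576 in the PBS libraries. The 12 microglial markers examined were all detected, with a summed FPKM (fragments per kilobase of transcript, scaled to the total counts of the library) of 110–168 in EAE and 91.3–160 in PBS libraries. The 9 neuronal markers summed to 857–1042 in EAE and 1017–1115 in PBS libraries, the 7 astrocyte markers to 1105–1677 and 1277–1516, and the 7 oligodendrocyte markers to 906–1272 and 995–1222, so that transcripts of other brain cells were abundant in all libraries despite the CD11b+/CD45int gate. The Y-linked genes Ddx3y, Eif2s3y, Kdm5d and Uty had at least 1301 counts in every library, which does not match the description of the mice as female. EAE 6, 7 and 8 and PBS 5, 7 and 8 were more alike than other libraries of their groups and are treated below as a library set. They were picked from these same data for being alike, so the spread within the set is small by choice. Its standard errors (SE) and the numbers of genes passing a test are not comparable with those of all 16 libraries. Whether the EAE and PBS parts of the set belong together was not tested. In such bulk samples, fewer cells of a type and less RNA per cell cannot be told apart.

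Tgm1 lies on chromosome 14 of GRCm38.p6, on the minus strand at 55700009–55713921, and its longest annotated transcripts have 15 exons. Tgm2 (158116405–158146392), Tgm3 (129987794–130050399), Tgm5 (121046111–121085841) and Tgm6 (130112416–130154233) all lie on chromosome 2. The RefSeq promoter table holds windows before a pair of Tgm1 start sites, both inside this span, whose outer end is at 55713921. The 250 bases before the outer of the pair (chr14:55713493-55713742, minus strand), which thus lie within the gene's span, are printed here because Tgm1 is the member with the largest difference between the groups. Capitals mark matches to the Sp1 motif GGGCGG on either strand.

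Tgm1 outer start of the pair: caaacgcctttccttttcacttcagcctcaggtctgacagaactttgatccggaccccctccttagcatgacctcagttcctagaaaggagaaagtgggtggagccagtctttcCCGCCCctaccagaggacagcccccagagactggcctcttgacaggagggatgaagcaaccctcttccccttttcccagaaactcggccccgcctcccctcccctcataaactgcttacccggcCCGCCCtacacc

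This window held 2 matches to GGGCGG and none to the AP-1 motif TGANTCA or to the TATA box TATAAA. Of 32851 promoter windows of this length in the RefSeq table, 32.7% held GGGCGG, 6.75% held TGANTCA and 12.4% held TATAAA on either strand. The window before the inner start of Tgm1 held none of the 3 motifs, nor did those of Tgm5 and Tgm6, and the window of Tgm3 held 1 TATAAA. These matches describe the letters of the windows and say nothing of factor binding in these cells.

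Tgm1 was the member with the largest difference between the groups. In the EAE mice its FPKM was 3.89, 4.53, 2.69, 2.67, 1.35, 4.23, 4.27 and 4.85 in EAE 1 to EAE 8. In the PBS-treated mice it was 1.10, 0.832, 0.465, 0.376, 1.502, 0.343, 1.70 and 1.33 in PBS 1 to PBS 8. The groups overlapped through 1 library, since 7 of 8 EAE libraries lay above every PBS library and EAE 5 lay below PBS 5 and PBS 7. All 8 EAE libraries were above the PBS median of 0.968, and all 8 PBS libraries were below the EAE median of 4.06. The means were 3.56 ± 1.20 (SD, n = 8) in EAE and 0.956 ± 0.532 (SD, n = 8) in PBS mice, a ratio of 3.72. These values rest on 132–398 counts per EAE library and 31–188 per PBS library. The edgeR fit gave a log2FC of 1.84 with an SE of 0.30.

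**Figure D1:**
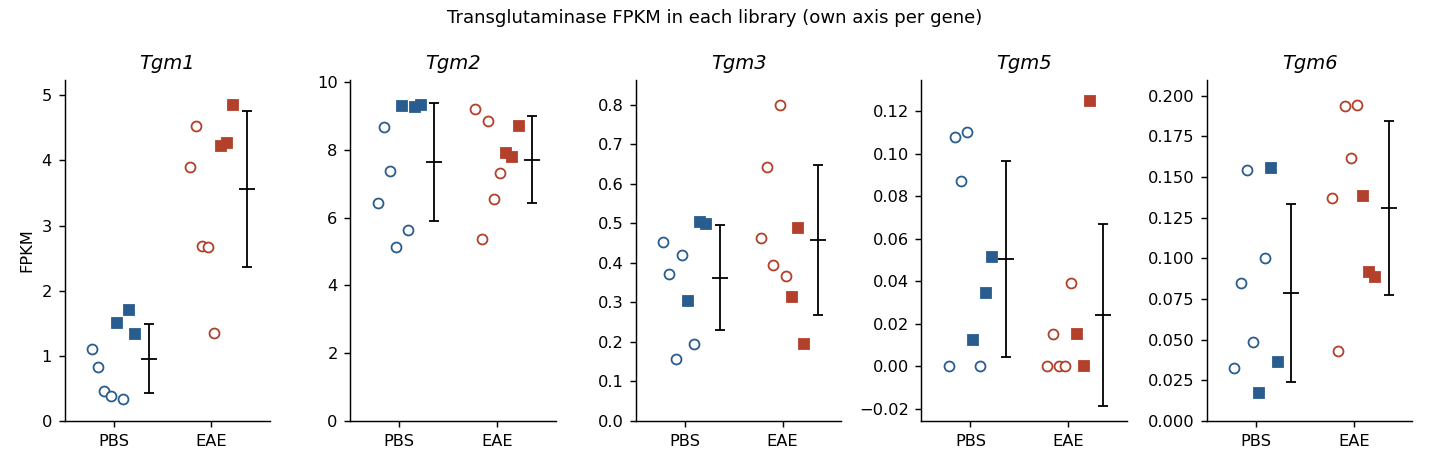
FPKM of the 5 transglutaminases (a panel and a linear y axis for each gene) in the 8 PBS libraries (blue) and the 8 EAE libraries (red), with filled squares for EAE 6, 7, 8 and PBS 5, 7, 8, open circles for the other libraries, and a black bar for the mean with its SD. Tgm1 sits between 1.35 and 4.85 in EAE and between 0.343 and 1.70 in PBS libraries, while the groups of the other members overlap over most of their range.

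The other members showed smaller or less certain differences. Tgm2, the most abundant member, ranged from 5.39 through a median of 7.85 to 9.22 FPKM in EAE and from 5.14 through 8.03 to 9.33 in PBS libraries. No EAE library exceeded the highest PBS library, and the means were 7.71 ± 1.28 and 7.65 ± 1.74 (SD, n = 8 each). The log2FC of Tgm2 was -0.04 (SE 0.13). Tgm3 ranged from 0.196 through 0.428 to 0.799 FPKM in EAE and from 0.156 through 0.395 to 0.504 in PBS libraries, with 2 EAE libraries above all PBS libraries. The means of Tgm3 were 0.458 ± 0.190 and 0.362 ± 0.133 (SD, n = 8 each) and its log2FC was 0.28 (SE 0.27). The SE of both genes is about as large as, or larger than, the difference itself.

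Tgm6 and Tgm5 were close to the limit of detection. Tgm6 was detected in all libraries with 4–21 counts in EAE and 2–19 in PBS mice, and its FPKM ranged from 0.0429 through a median of 0.138 to 0.194 and from 0.0171 through 0.0667 to 0.155. The groups of Tgm6 overlapped, with 3 EAE libraries above all PBS libraries, and the log2FC was 0.67 (SE 0.44). Tgm5 had a total of 44 counts over the 16 libraries, with none in EAE 1, 3, 4 and 7 or in PBS 1 and 6. A count of 0 allows up to 3 counts, or 0.0425–0.0482 FPKM in these 6 libraries, counting error only. Tgm5 reached 8 counts in EAE 8 and 9 in PBS 2, and the means were 0.0243 ± 0.0429 and 0.0504 ± 0.0463 FPKM (SD, n = 8 each). Its fitted log2FC was -1.07 (SE 0.85), and -2.17 without EAE 8.

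Over all 17885 mRNAs tested, 0.0951% were called higher in EAE mice and 0.0224% lower, at an adjusted p under 0.05 and a |log2FC| over 1. Without the fold threshold 0.66% were higher and 1.76% lower. Of the 5 members, all of which passed the minimum of 16 counts in total, 1 was called, namely Tgm1. Since Tgm1 was chosen by this contrast, nothing is read from that count. The median log2FC over all mRNAs tested was 0.01.

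The log2FC of Tgm1 stayed between 1.70 (without PBS 6) and 2.01 (without PBS 7) when each library was left out in turn. It was 1.96 without EAE 5, the lowest EAE library. Within the library set EAE 6, 7, 8 and PBS 5, 7, 8 it was 1.53 (SE 0.12), and in the remaining 5 EAE and 5 PBS libraries 2.20 (SE 0.34). Tgm1 was higher in EAE mice under all 26 alternative settings, from 1.22 for log2(FPKM + 1), a scale that understates the change of low genes, to 2.20. The direction for Tgm3 was not shared by the library sets, with a log2FC of -0.41 (SE 0.34) within EAE 6, 7, 8 and PBS 5, 7, 8 and 0.67 (SE 0.33) within the others. For Tgm2 these values were -0.22 (SE 0.07) and 0.09 (SE 0.16). The SEs within EAE 6, 7, 8 and PBS 5, 7, 8 are lowered by the choice of alike libraries.

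**Figure D2:**
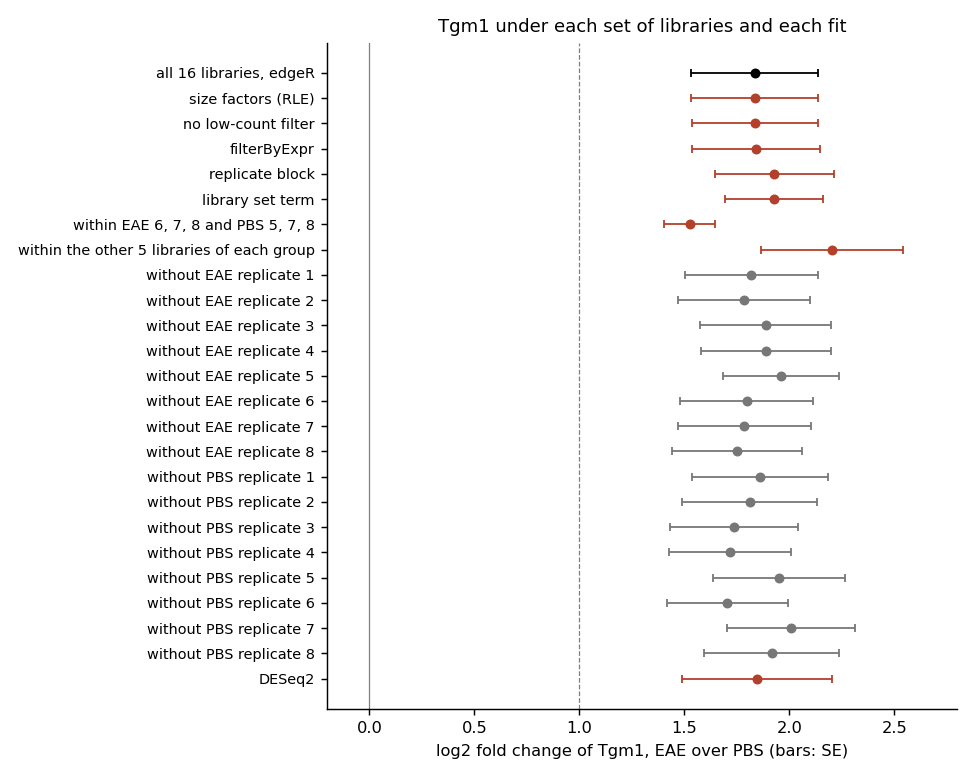
Fitted log2 fold change of Tgm1, EAE over PBS (x axis), under each setting (y axis), with the SE as bars; black marks the fit of all 16 libraries, red other fits or subsets and grey the fits without 1 library, and dashed and solid lines stand at 1 and 0. All points lie between 1.53 and 2.20.

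Tgm1 also varied more between libraries of the same group than the median mRNA, by an estimate made over both groups. Its coefficient of variation in FPKM was 33.8% in EAE and 55.6% in PBS mice, where counting noise alone would give 5.74% and 10.2%. The biological coefficient of variation that edgeR estimated was 41.0% for Tgm1 and 18.0% for Tgm2, against a median of 12.99% over all mRNAs tested. It was 35.4% for Tgm3, 49.6% for Tgm6 and 101% for Tgm5. For the relatives described below it was 24.2% (F13a1), 29.3% (Epb42), 30.4% (Tgm4) and 38.7% (Tgm7), so a high value was not particular to Tgm1. Part of the spread of Tgm1 followed the library set. In PBS mice, Tgm1 was at 1.33–1.70 FPKM in PBS 5, 7 and 8 and at 0.343–1.10 in the other 5 libraries, which did not overlap. In EAE mice, it was at 4.23–4.85 FPKM in EAE 6, 7 and 8 and at 1.35–4.53 in the others, which did overlap. Tgm2 was likewise at 9.27–9.33 FPKM in PBS 5, 7 and 8 and at 5.14–8.68 in the other PBS libraries. In EAE 6, 7 and 8, however, it was at 7.80–8.70 FPKM, inside the 5.39–9.22 of the other EAE libraries.

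Markers of other cells moved with the groups too. The 13 neutrophil markers, all detected, summed to 51.0–102 FPKM in EAE and 19.8–58.1 in PBS libraries, and for 4 of them (S100a8, S100a9, Ngp and Ltf) edgeR's adjusted p was under 0.05. Over all mRNAs tested, 0.66% were higher and 1.76% lower in EAE mice at that threshold. In edgeR's test it was also passed by Trem2 of the microglial markers, Syt1 and Gad1 of the neuronal, Gfap of the astrocyte and Ttr of the choroid plexus markers. The neutrophil sum was 96.0–102 in EAE 6, 7 and 8 and 55.2–56.1 in PBS 5, 7 and 8, within or overlapping the 51.0–98.3 and 19.8–58.1 of the other libraries. The 10 monocyte or macrophage markers summed to 8.18–12.8 and 4.65–9.76 FPKM, and none of them had an adjusted p under 0.05 in edgeR's test, where 1 had an unadjusted p under 0.05, or 1, Arg1, in DESeq2's. The 6 choroid plexus markers, led by Ttr, summed to 78.6–135 FPKM in EAE and 96.9–241 in PBS libraries, and to 96.9–99.1 in PBS 5, 7 and 8 against 142–241 in the other PBS libraries. Of the 8 keratinocyte markers, only Ivl, which encodes involucrin, was at 0 in all 16 libraries. Krt10, at 1.47–2.84 FPKM in EAE and 1.55–3.20 in PBS libraries, and Sfn were the most abundant. The 8 markers together summed to 3.86–6.05 FPKM in EAE and 3.28–5.52 in PBS libraries. All of them except Sfn are also among the cornified envelope genes described below, so the results of these lists are not separate. The keratinocyte, endothelial, pericyte, ependymal, meningeal fibroblast and T cell lists held no gene with an adjusted p under 0.05 in either tool, and 0 to 2 genes each with an unadjusted p under 0.05 in edgeR. The part of these cells in the level of Tgm1 was not tested.

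The order of the members by mean FPKM was Tgm2, Tgm1, Tgm3, Tgm6 and Tgm5 in both groups. In EAE mice Tgm2 was 2.17 times as high as Tgm1, which was 7.78 times as high as Tgm3, and each step held in 8 of 8 libraries. In PBS mice the steps were 8.00 and 2.64, in 8 of 8 and 7 of 8 libraries. No p-value is given for these steps, since the set was chosen by the level of Tgm1 in the same libraries. Tgm3 was above Tgm6 in every library of both groups, by a factor of 3.50 in EAE and 4.61 in PBS mice. Tgm6 was above Tgm5 in 7 of 8 EAE libraries (exact two-sided sign-flip permutation test, adjusted p = 0.0268 over 8 neighbour pairs). In PBS mice it was above Tgm5 in 5 of 8 libraries, where the levels, 0.0786 and 0.0504 FPKM, did not differ beyond their spread (exact permutation test, p = 0.25). The order that set these pairs was taken from the same libraries. The mean FPKM of Tgm2 was higher than that of 66.3% of the 21878 mRNAs in EAE and 66.9% in PBS mice. For Tgm1 these shares were 52.3% in EAE and 39.4% in PBS mice, for Tgm3 33.0% and 32.4%, for Tgm6 25.8% and 24.4%, and for Tgm5 18.4% and 22.3%.

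Expressed as a share of the summed FPKM of the 5 members, Tgm1 made up 29.5 ± 8.66% (SD, n = 8) in EAE and 9.90 ± 3.92% (SD, n = 8) in PBS mice. The share of Tgm1 ran from 14.6% in EAE 5 to 42.7% in EAE 2, and from 5.46% in PBS 6 to 14.6% in PBS 7. EAE 5 thus fell at the top of the PBS range, and the other 7 EAE libraries, at 22.2% or more, lay above it. Tgm2 held 65.1 ± 8.38% in EAE and 84.5 ± 3.85% in PBS mice (SD, n = 8 each), and Tgm3 held 4.03 ± 2.04% and 4.08 ± 1.61%. EAE 2, with the highest share of Tgm1, also had the lowest FPKM of Tgm2 among the EAE libraries.

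**Figure D3:**
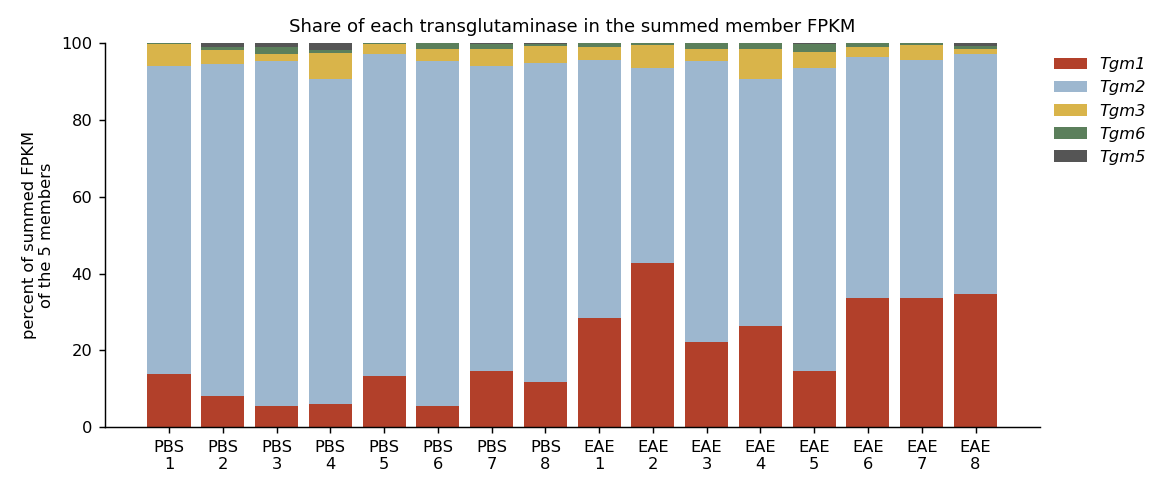
Share of each member in the summed FPKM of the 5 transglutaminases (y axis, percent, bars from 0 to 100) in each of the 16 libraries (x axis). The red share of Tgm1 runs from 5.46% to 14.6% in PBS and from 14.6% to 42.7% in EAE libraries, and Tgm2 (pale blue) holds most of the remainder in every library.

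The remaining transglutaminase-like genes, which were not members, are Tgm4 (prostate transglutaminase), Tgm7, F13a1 (the A chain of clotting factor XIII) and Epb42 (an inactive relative in the red cell membrane). All 4 had a positive log2FC and none was called. Tgm4 was at 0.359–0.716 FPKM in EAE and 0.0811–0.389 in PBS libraries, with 6 of 8 EAE libraries above every PBS library. The means of Tgm4 were 0.511 ± 0.127 and 0.257 ± 0.102 FPKM (SD, n = 8 each), and its log2FC was 0.93 (SE 0.26, adjusted p = 0.0594 in the edgeR test). The adjusted p of Tgm4 was 0.0275 with a term for the library set in edgeR and 0.0146 with DESeq2. It passed in 2 of 16 edgeR fits that left out a library, with 0.0259 without EAE 4 and 0.0499 without EAE 5. The highest value in these fits was 0.123, without EAE 1. Within EAE 6, 7, 8 and PBS 5, 7, 8 it was 0.208 in edgeR, and within the other 5 libraries of each group 0.200. Tgm4 overlaps Zdhhc3 on the opposite strand, whose log2FC was -0.06, and the strand setting of the counting is not given in the sources used here, so that its counts are uncertain. The log2FC of Tgm7 was 0.49 (SE 0.29), of F13a1 0.27 (SE 0.18) and of Epb42 0.35 (SE 0.30), with adjusted p of 0.410, 0.453 and 0.579 in the edgeR test.

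Annotated transcripts of Tgm1 shared no run of identical bases longer than 13 bases with F13a1 and Epb42, 14 with Tgm2, Tgm4 and Tgm7, 16 with Tgm3, 22 with Tgm5 and 24 with Tgm6, so that few reads could match more than 1 of these genes. The genes on either side of Tgm1, Gmpr2 and Rabggta, did not pass the test, with a log2FC of -0.04 (SE 0.09) and -0.01 (SE 0.05) and adjusted p of 0.863 and 0.938 in edgeR. Rabggta, on the same strand, ends 1943 bases before the outer end of the Tgm1 span and was at 13.2 ± 0.893 FPKM in EAE and 12.8 ± 0.844 in PBS mice (SD, n = 8 each).

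Genes known to work with the members were examined in 7 lists, which overlap in Casp14 and hold 101 genes of the table, of which 87 were tested. None of the 87 was called in edgeR's or in DESeq2's test. At an adjusted p under 0.05 without the fold threshold, 1 was higher and 4 were lower in EAE mice, where 0.66% and 1.76% of all mRNAs tested were, and 21 had an unadjusted p under 0.05 in edgeR, where 17.4% of all mRNAs tested did. DESeq2 gave 12 genes at an adjusted p under 0.05, where 5.03% of all mRNAs passed. The cornified envelope genes, which include substrates that Tgm1 cross-links in skin and other genes of differentiating keratinocytes, were mostly at or near 0. Exceptions included Lor, with a mean of 0.969 FPKM in EAE and 0.864 in PBS mice, and Ppl, with 1.10 and 0.808. The most abundant genes of the list, named below, were exceptions too. Of 29 cornified envelope genes in the table, 8 had no count in any library and 16 were tested, of which 0 had an adjusted p under 0.05 in edgeR or DESeq2. The lowest in edgeR was 0.152, with 3 genes at an unadjusted p under 0.05, and the median log2FC was 0.23. By mean FPKM over all 16 libraries, the most abundant genes of this list were Evpl (envoplakin), at 2.34 ± 0.356 and 1.91 ± 0.312 FPKM (SD, n = 8 each), the keratin gene Krt10, at 1.96 ± 0.477 and 1.98 ± 0.544, and Dsp (desmoplakin), at 1.42 ± 0.334 and 1.46 ± 0.181.

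Of 10 tested genes of recessive congenital ichthyosis, the skin disease that loss of human TGM1 also causes, 1 was lower. At this threshold, an adjusted p under 0.05, 1.76% of all mRNAs tested were lower. In edgeR 2 of the 10 had an unadjusted p under 0.05, against 17.4% of all mRNAs tested. The lower gene was the fatty acid transporter gene Slc27a4, at 23.3 ± 1.57 FPKM in EAE and 25.3 ± 0.606 in PBS mice (SD, n = 8 each). Its log2FC was -0.17 (SE 0.05, adjusted p = 0.0496 in the edgeR test). It passed in 5 of 16 edgeR fits that left out a library and was lost without EAE 1, 2, 3, 6 or 8 and PBS 1, 2, 3, 5, 7 or 8, with an adjusted p of up to 0.116. The lipoxygenase genes Aloxe3 (log2FC 0.05) and Alox12b (log2FC -0.19) did not pass. Among 17 factors and kinases that act on Tgm1 in keratinocytes, none had an adjusted p under 0.05 in edgeR or DESeq2. The smallest in the edgeR test was 0.0948, and 2 genes had an unadjusted p under 0.05. The AP-1 genes Jund and Junb and the kinase gene Prkca were the most abundant, with a log2FC of -0.15 (SE 0.08), -0.07 (SE 0.19) and -0.10 (SE 0.06). Of the 16 retinoid genes none had an adjusted p under 0.05 in edgeR and 4 had an unadjusted p under 0.05. In DESeq2, where 5.03% of all mRNAs tested had an adjusted p under 0.05, 3 retinoid genes did. They were the lower Aldh1a1 and Cyp26b1 and the higher Stra6. Their most abundant gene, Aldh1a1, which makes retinoic acid, was at 29.0 ± 7.21 and 36.5 ± 4.72 FPKM (SD, n = 8 each), with a log2FC of -0.38 (SE 0.12, adjusted p = 0.0819 in edgeR), and the receptor genes Rxrb and Rxra had a log2FC of -0.04 and -0.11.

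The 14 partners and substrates of Tgm2 gave a median log2FC of 0.03, with 1 gene higher and 1 lower. Itga5, the integrin chain of the fibronectin receptor, was at 6.53 ± 1.17 FPKM in EAE and 4.47 ± 0.732 in PBS mice (SD, n = 8 each), with a log2FC of 0.49 (SE 0.11, adjusted p = 0.0261 in the edgeR test). Adgrg1, an adhesion receptor known to bind Tgm2, was at 25.2 ± 2.105 and 29.2 ± 2.42 FPKM, with a log2FC of -0.27 (SE 0.06, adjusted p = 0.0190 in the edgeR test). The edgeR adjusted p of Itga5 was 0.0597 without EAE 2, 0.0535 without EAE 6, 0.0538 without EAE 8 and 0.0525 without PBS 3, and that of Adgrg1 was 0.0519 without EAE 2 and 0.0540 without PBS 2. The most abundant genes of this list, Lrp1 (log2FC -0.13, SE 0.04, adjusted p = 0.0583), Sdc4 (-0.07, SE 0.08) and Mfge8 (-0.25, SE 0.12), did not pass in edgeR. In DESeq2, where 5.03% of all mRNAs tested had an adjusted p under 0.05, 4 genes of this list did. They were Itga5, Adgrg1, Sdc2 and Lrp1, with 0.00632 for Lrp1.

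The neuronal proteins that transglutaminases cross-link showed 2 lower genes among 10, with a median log2FC of -0.11. App, the amyloid precursor gene, was at 197 ± 15.97 FPKM in EAE and 235 ± 9.67 in PBS mice (SD, n = 8 each), with a log2FC of -0.31 (SE 0.05, adjusted p = 0.00573 in the edgeR test), and it passed in all 16 edgeR fits that left out a library. Nefh, the heavy neurofilament chain, had a log2FC of -0.21 (SE 0.05, adjusted p = 0.0294 in the edgeR test), with adjusted p of 0.0511–0.0713 when leaving out EAE 1, 2, 6 or 8 or PBS 2 or 7. Map2 and Nefl had a log2FC of -0.09 and -0.16 and did not pass. DESeq2 gave 3 genes of this list, App, Nefh and Tubb3, where 5.03% of all mRNAs tested passed. These lower genes stood beside a neuronal marker sum of 857–1042 FPKM in EAE and 1017–1115 in PBS libraries, whose part in them was not tested. Tubb3 and Nefl belong both to this list and to the neuronal markers, so the list and the sum are not separate. Within the other 5 libraries of each group, outside the library set, none of the 87 genes had an adjusted p under 0.05 in edgeR. Among all mRNAs tested there, only 8 were higher and 5 lower at that threshold, so nothing is read from the absence of list genes.

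**Figure D4:**
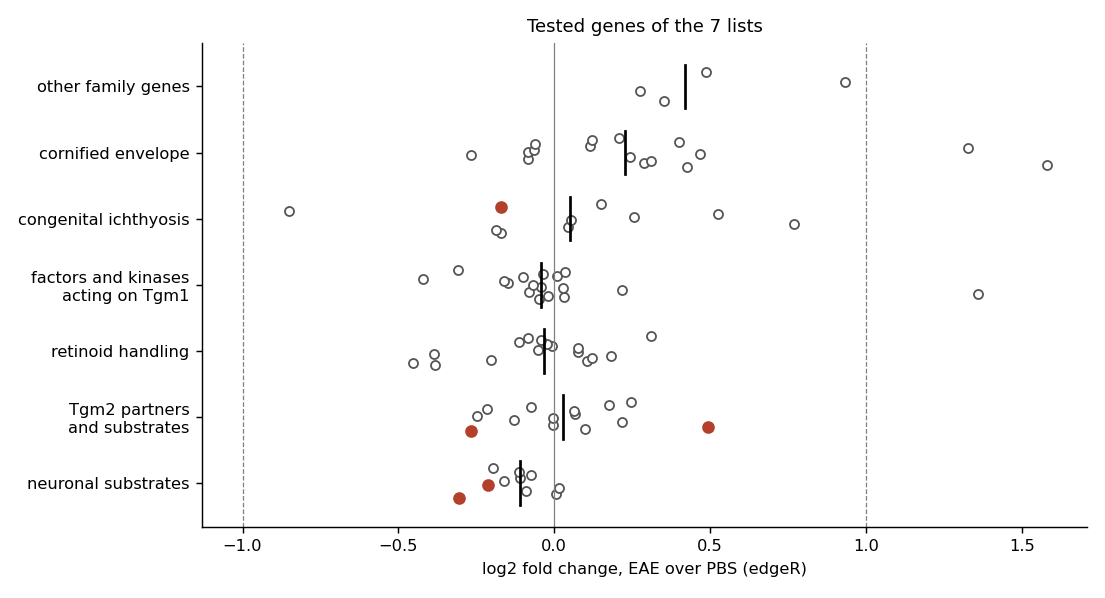
log2 fold change, EAE over PBS (x axis), of each tested gene in the 7 lists (y axis), with red points for an adjusted p under 0.05 in edgeR's test, open points for the rest, a black line at the list median, and dashed lines at the call threshold of 1 and -1. The 5 red points lie between -0.31 and 0.49, inside the dashed lines.

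Outside the dashed lines of that plot lay 3 genes, named here after their values were seen, of which none passed. Csta1, a cystatin of the cornified envelope, had a log2FC of 1.58, the basal keratin gene Krt5 1.33 and Fosl1, an AP-1 subunit gene, 1.36. Their levels were low, with means in EAE mice of 0.0781, 0.0419 and 0.490 FPKM, and their adjusted p in edgeR was 0.185, 0.470 and 0.186.

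To find the genes whose level varied most like that of Tgm1 from mouse to mouse, the group mean was removed from log2 CPM and Pearson's r was taken over the 16 libraries for 14760 mRNAs with a mean CPM of at least 1. The 10 highest r belonged to Morn3 (0.92), Pcnx3 (0.90), Anks1 (0.90), Irs1 (0.89), LOC108169013 (0.89), Phlda1 (0.89), Gsr (0.88), Ccr1 (0.88), Foxj3 (0.88) and Tbc1d17 (0.88). In all, 151 mRNAs had an r over 0.8 with Tgm1. None of the 10 had an adjusted p under 0.05 between the groups in edgeR or DESeq2, 1 had an unadjusted p under 0.05, and the adjusted p in edgeR nearest to the threshold was that of the chemokine receptor gene Ccr1, 0.144, with a log2FC of 0.71 (SE 0.26). Morn3 deviated from its group mean by 0.52 to 0.55 in PBS 5, 7 and 8, the same libraries in which Tgm1 was 0.68 to 1.04 above its own. With the means of the library sets removed as well, the r of Morn3 was 0.85 and that of Pcnx3 was 0.88. The list itself was not firm, since only 2 of the 10 genes were among the 10 highest in PBS libraries alone, and 0 in EAE libraries alone. All these points share libraries and depth, and the r are descriptive.

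**Figure D5:**
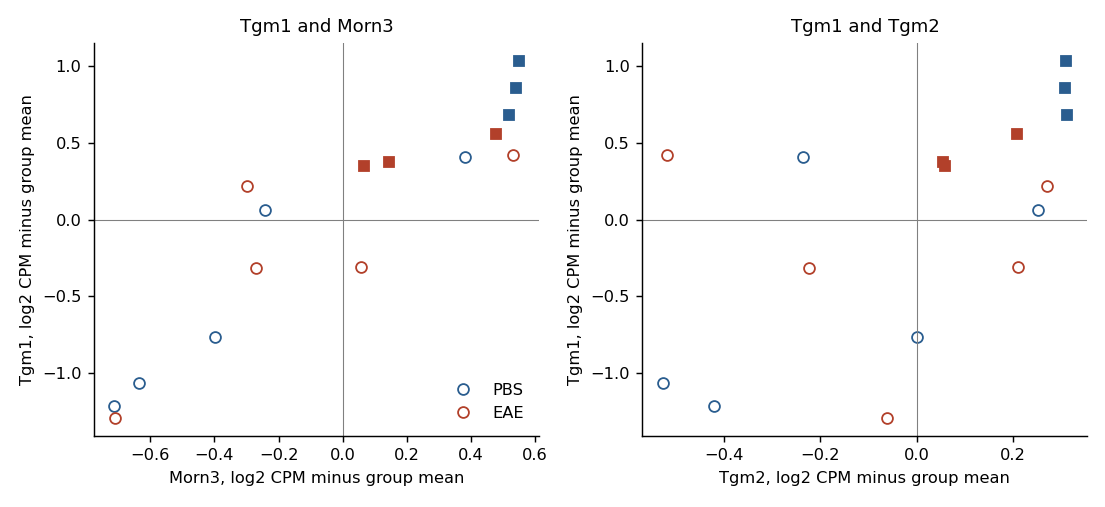
Deviation of Tgm1 from its group mean (y axis, log2 CPM) against that of Morn3 (left) and Tgm2 (right) in the 8 PBS (blue) and 8 EAE (red) libraries, with filled squares for EAE 6, 7, 8 and PBS 5, 7, 8. Tgm1 and Morn3 rise together (r = 0.92), while Tgm1 and Tgm2 are less alike (r = 0.56) and EAE 2 is high for Tgm1 and low for Tgm2.

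For Tgm2 the 5 highest r were those of the TNF receptor gene Tnfrsf1a (0.92), Tm4sf1 (0.92), Angptl4 (0.92), Elf1 (0.91) and Stk24 (0.91). Tgm1 and Tgm2 shared none of these genes. Between them, the r was 0.56 over all libraries, 0.07 in EAE and 0.81 in PBS libraries, a difference that was not tested. Tgm1 and Tgm3 had an r of 0.31, and Tgm1 and Tgm4 one of 0.66, with 0.42 in EAE and 0.75 in PBS libraries. Tgm5 and Tgm6 were under the CPM minimum and were left out.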

How the data were processed

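Total RNA of sorted cells was rRNA-depleted and sequenced as stranded paired-end libraries, 1 per mouse. According to the methods and the submitters' processing notes, the authors demultiplexed reads with bcl2fastq, aligned them to GRCm38 with HISAT2 2.1.0, counted them with HTSeq 0.11.2 and annotated them with RefSeq. For differential expression the methods name both edgeR and DESeq2, with DESeq2 1.22.2 in the notes. The strand setting and the RefSeq release are not given in the sources used here. The authors deposited raw counts and FPKM for 21878 mRNAs, and the deposited FPKM were the counts divided by gene length and the library's total counts, to a relative spread of 1.15e-09. No column of sample values was left unused (0).

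Counts were tested with edgeR 4.0.16 (R 4.3.3; glmQLFit and glmQLFTest, TMM, two-sided, Benjamini-Hochberg) over 17885 mRNAs with at least 16 counts in total. A call required a |log2FC| over 1 with an adjusted p under 0.05. The SE was the log2FC divided by the square root of F. Levels of members in the same library were compared with an exact sign-flip permutation test, whose p-values are not given for pairs with Tgm1. Alternatives were DESeq2 1.42.0, size factors, other filters, a replicate block, a library set term and leaving out each library. The fit was tested on simulated data for EAE against PBS with 17781 genes, where 99% of 200 genes changed by a log2FC of 1.5 were recovered. The changed genes all had a mean CPM over 1 and the simulated libraries held no library set. The share thus does not apply to lower genes such as Tgm5 and Tgm6. No pair of libraries of the same group differed by as little as sampling noise, the lowest ratio to it being 3.09, so none was counted as a duplicate. Pairs of an EAE and a PBS library were not compared in this way. The labels give 1 mouse per library without further detail, and p-values measure the spread between these libraries.

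Named genes were the members, the other family genes, the 3 most abundant genes of each list and those with an adjusted p under 0.05, the genes most like Tgm1 and Tgm2, and neighbours of members. The members and lists were chosen with earlier results of these data known. RefSeq promoters and gene positions (GRCm38.p6) and GENCODE exons were matched by symbol.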

Additional observations from a re-analysis of the deposited data

Results flagged for a closer look

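Among the 18 sets of 8 FPKM values examined (9 transglutaminase family genes in each group), 1 held a library far from the others. Tgm5 was at 0.125 FPKM (8 counts) in EAE 8, and the next highest EAE library was at 0.0392. The gap was 0.686 of the whole range. About 1 in 20 such groups would be flagged by chance if their values were normally distributed. That share does not apply to Tgm5, which had no count in 4 of the 8 EAE libraries.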

How the results depend on the processing

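All 26 alternatives kept Tgm1 higher in EAE mice, and the order of the 5 members by FPKM was kept in both groups with medians and without each library. The numbers of libraries were not taken to pair mice, since the deviations of EAE and PBS libraries with the same number correlated at -0.22 to 0.56 over the 8 numbers and 2 of 8 EAE libraries correlated best with their own. With the replicate number as a replicate block, the paired fit gave Tgm1 a log2FC of 1.93 (SE 0.28), 1 mRNA called lower in place of 4, 8 list genes at an adjusted p under 0.05 in place of 5, and an adjusted p of 0.0456 for Tgm4 and 0.0326 for Aldh1a1.

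Within EAE 6, 7, 8 and PBS 5, 7, 8, the log2FC was -0.41 for Tgm3 and 0.44 for Tgm5, 104 mRNAs were called higher and 73 lower, 1896 and 2251 had an adjusted p under 0.05, and so had 24 list genes. Since these libraries were picked from the same data for being alike, nothing is read from these larger numbers. Within the other 5 libraries of each group, the log2FC of Tgm5 was -2.32, the calls were 5 higher and 1 lower, 8 and 5 mRNAs had an adjusted p under 0.05, and 0 list genes had. A library set term gave 34 called higher, 242 higher and 526 lower at an adjusted p under 0.05, and 11 list genes, with adjusted p of 0.0187 for Aldh1a1 and 0.0307 for Lrp1. DESeq2 gave 297 higher and 602 lower at an adjusted p under 0.05, and 12 list genes. With filterByExpr, 1 mRNA was called lower and Tgm5 and Tgm6 gave no value. The difference of Tgm5 on the log2(FPKM + 1) scale was -0.036. The adjusted p of Slc27a4 was 0.0504–0.0646 with filterByExpr, RLE size factors, no filter on low counts or the replicate block. The cause was not tested.

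Of the 10 genes most like Tgm1, 4 were shared with Spearman's rho, 0 in EAE libraries alone, 2 in PBS libraries alone and 3 with the library set means removed, an alternative chosen after seeing the data. Of the 5 for Tgm2 these were 2, 2, 0 and 2.

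Leaving out single libraries gave 11 (without EAE 8) to 45 (without EAE 4) mRNAs called higher and 1 (without EAE 2, for example) to 7 (without PBS 6, for example) called lower. At an adjusted p under 0.05 it gave 39 (without EAE 2) to 502 (without EAE 4) higher and 104 (without PBS 2) to 815 (without EAE 4) lower mRNAs. The list genes numbered 1 without EAE 2, 2 without EAE 6, EAE 8 or PBS 2, 3 without PBS 3 or PBS 7, 12 without EAE 5 and 15 without EAE 4. The log2FC of Tgm5 ran from -2.17 to -0.80, on at most 9 counts per library.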
